A study of Mus musculus with 8 samples.

Results

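The genes described here encode 3 systems of guidance cues and their receptors: Slit ligands with Robo receptors, ephrins with Eph receptors, and semaphorins with plexins and neuropilins. They were found by name in a table of 21291 gene rows, of which 59 matched, 30 encoding ligands and 29 encoding receptors; Sema3g was left out by the rule. RNA was taken from the paired whole kidneys of mouse embryos (stage E14.5). There were 4 control and 4 mutant libraries, each from a separate pair, so that the spread between libraries is a spread between embryos. All of them bore the Six2-GFPcre transgene (Six2-GFPcre tg/+), whose Six2 promoter puts Cre recombinase into nephron progenitors, and 2 floxed copies of Etv5 (Etv5fl/fl). Controls kept 1 functional copy of Etv4 (Etv4+/-) and mutants had none (Etv4-/-). As labelled, the groups therefore differ at Etv4 alone, the Etv4 allele is not limited by its label to the cells in which Cre acts, and both groups carry Cre with floxed Etv5. The series asks what follows from removing Etv4 and Etv5, related ETS-family transcription factors, from nephron progenitors and their descendants.

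Guidance molecules were first described in growing axons and also steer epithelial buds, vessels and mesenchyme. Slit proteins are secreted and signal through Robo receptors; in the early kidney, Slit2 and Robo2 keep the source of GDNF confined, so that a single ureteric bud grows out. Ephrins are held at the cell surface and signal on contact, in both the Eph-bearing and the ephrin-bearing cell. Class 3 semaphorins are secreted and mostly act through a neuropilin joined to a plexin, whereas classes 4 to 7 are mostly bound to the membrane and engage plexins directly.

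Several facts of the libraries bear on every value below. Etv4 had 2311 to 2816 scaled counts in controls and 164 to 294 in mutants, in the direction of the labels. Etv5 had 3006 to 4085 in controls and 1487 to 2658 in mutants. Control 4 was the shallowest library, with 15515139 estimated counts against 34114519 to 39548327 in the others, and Lars2 took 18.4% of its counts. Its values also fell off with transcript length: against the mean of controls 1 to 3, the median gene stood 0.30 higher on the log2 scale when the longest annotated transcript was under 2000 bases and 0.45 lower (a median of −0.45) when it had 8000 bases or more. Guidance transcripts are long, with a median of 4952 bases against 3441 over all genes tested, and their median in control 4 was −0.27 against the other controls. A value without control 4 is therefore given for each named gene whose log2 fold change moved by over 1.5 times without it, and for some others. Without it 7 of the 55 tested guidance genes had the opposite sign (Epha5, Slit3, Efnb3, Plxna1, Sema4d, Sema4f and Sema6d). The 4 Y-linked genes examined summed to 3586 to 3716 scaled counts in controls and 0 to 19.6 in mutants, so the sex of the embryos and the genotype cannot be told apart. In whole kidneys, fewer cells of a type and less RNA per cell cannot be told apart either.

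**Figure D1:**
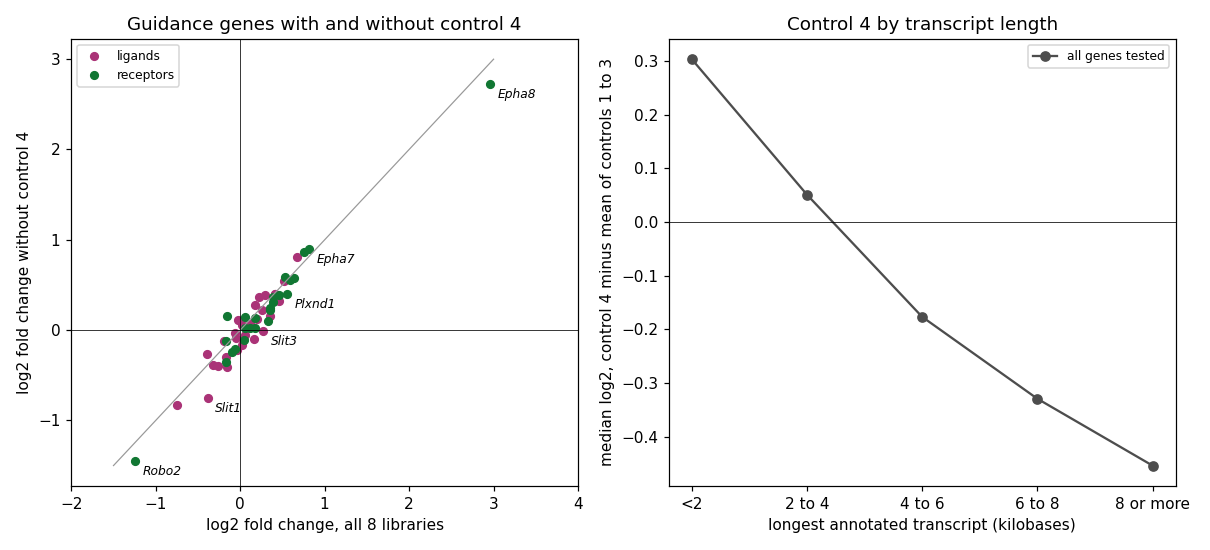
Left: log2 fold change (mutant over control) of each tested guidance gene from all 8 libraries (x axis) against the same without control 4 (y axis), with the line of equality. Right: median log2 difference between control 4 and the mean of controls 1 to 3 over all genes tested, by longest annotated transcript in kilobases; the median runs from 0.30 in the shortest class to −0.45 in the longest.

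Plexins, the ephrin-B system and class 3 semaphorins held the most abundant guidance transcripts. Levels between genes are compared as scaled counts per kilobase of the longest annotated transcript, averaged over the 8 libraries. On that scale the receptors were led by Plxnb2 at 2536, Plxnd1 at 2140.4 and Ephb4 at 1761, followed by Nrp1 at 699. The ligands were led by Efnb1 at 2027, Sema3f at 1306, Efnb2 at 778 and Sema3c at 773. Slit2, at 497, was the most abundant Slit, and Robo2, at 378, the most abundant Robo. At the other end, Sema3e stood at 13.3 and Plxna4 at 11.4, and Epha8 and Epha5 at 6.30 and 3.53. Robo3, Plxnb3, Epha6 and Epha10, at 0.449 to 1.60, did not have 10 scaled counts in 4 libraries and were not tested. The remaining 55 genes, 30 ligands and 25 receptors, were tested.

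**Figure D2:**
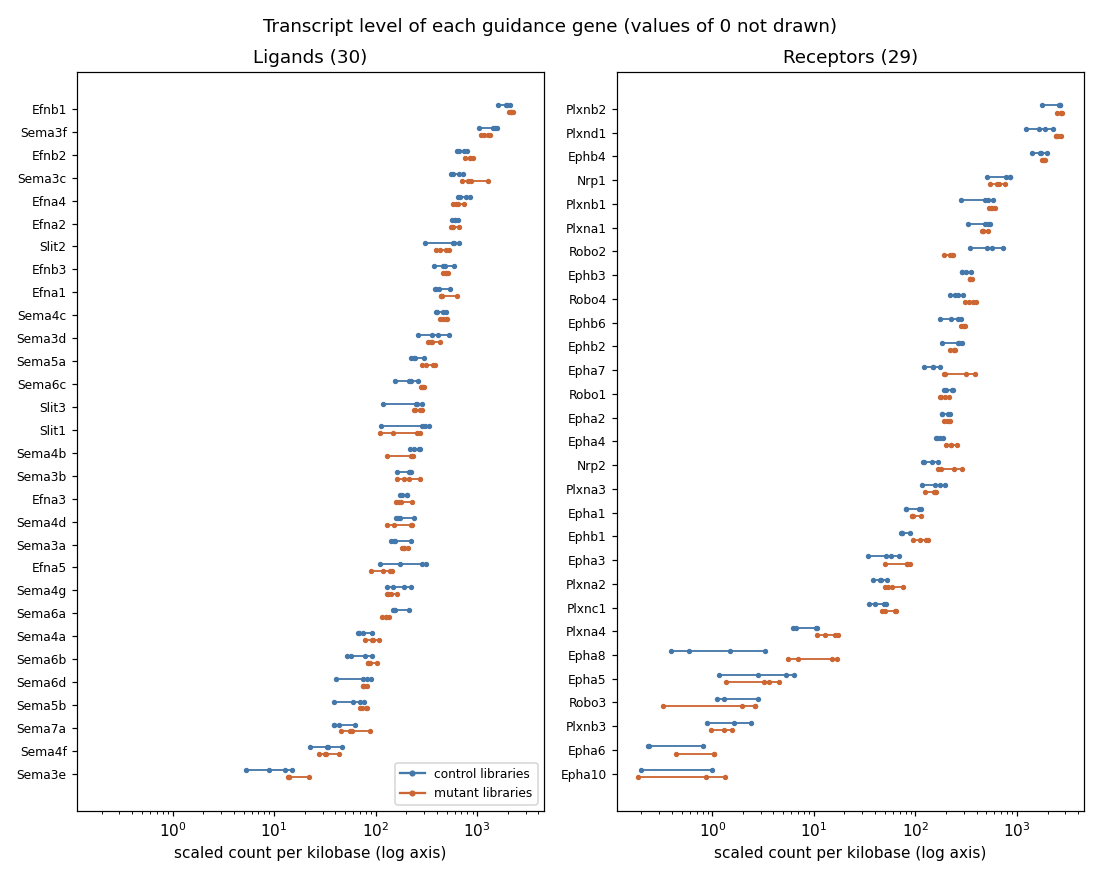
Level of each of the 59 guidance genes in each library, as scaled counts per kilobase of the longest annotated transcript (log axis), with a line from the lowest to the highest library of each group. Mean levels run from 0.449 for Epha10 to 2536 for Plxnb2, and the Robo2 mutant libraries lie clear of the control libraries.

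Robo2 fell in mutant kidneys, and was the single guidance gene past the threshold of 0.05 (limma, adjusted over 14974 genes). Over all genes tested, 0.301% passed, 0.22% as lower and 0.0801% as higher in mutants. Of the 55 tested members, 37 (67.3%) had positive and 18 negative log2 fold changes, where 51.7% of all genes tested had positive ones. The median was 0.17 against 0.0087 over all genes tested. Receptors had a median of 0.33, with 19 of 25 positive, and ligands one of 0.084, with 18 of 30 positive. Without control 4 these medians were 0.15 and 0.023. The comparison of ligands with receptors is a description and was not tested.

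**Figure D3:**
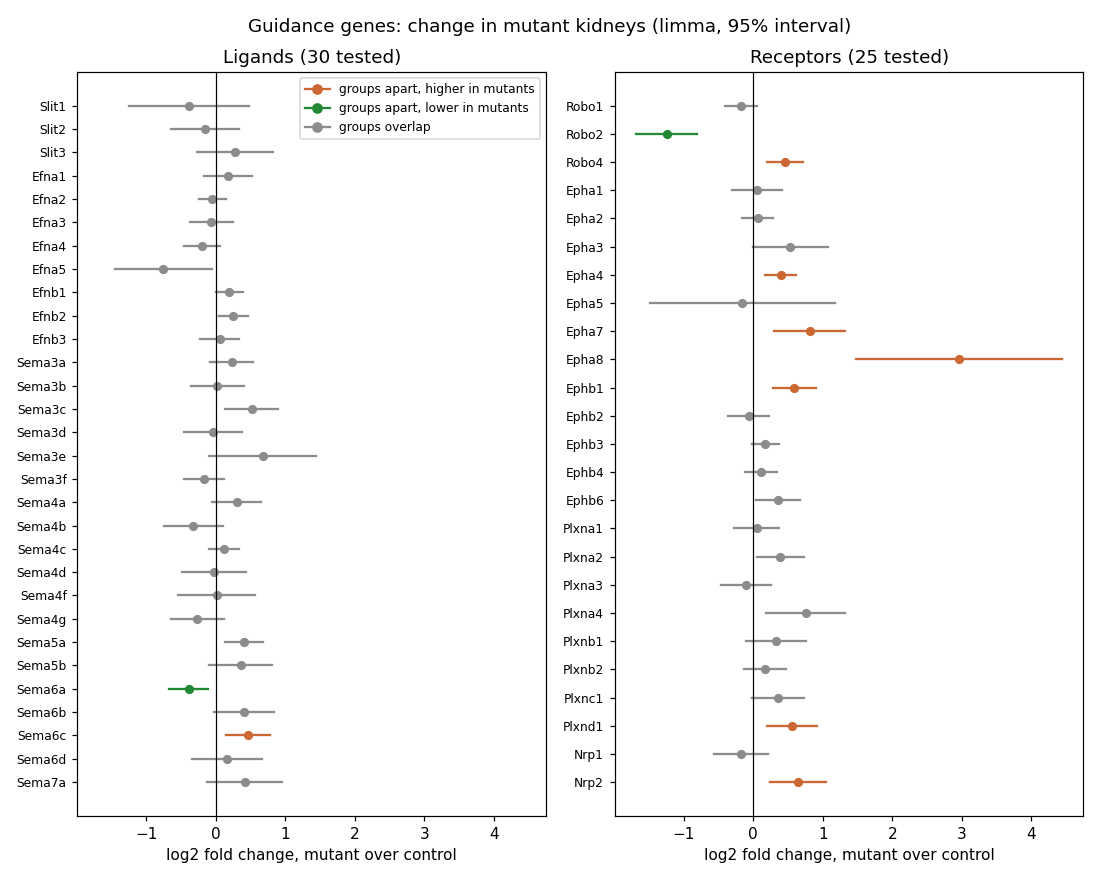
Log2 fold change, mutant over control, of each of the 55 tested guidance genes with its 95% interval from limma, ligands on the left and receptors on the right. Coloured points mark genes whose 4 mutant libraries all lie above or all below the 4 control libraries; Robo2, at −1.25, is the lowest point and Epha8, at 2.96, the highest.

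In 10 of the 55 tested genes (18.2%) the mutant and control libraries did not overlap, against 8.6% of all genes tested. Epha4, Epha7, Epha8, Ephb1, Robo4, Nrp2, Plxnd1 and Sema6c were higher in every mutant library than in any control, and Robo2 and Sema6a were lower. Over all genes tested, 4.17% lay higher and 4.43% lower in this way. Receptors made up 8 of the 10, which is 32% of receptors tested, and ligands 2, which is 6.67% of ligands tested. Without control 4 all 10 still did not overlap, and 9 further genes joined them, giving 11 higher and 8 lower, where 17.3% of all genes tested did not overlap. The genes that joined were Efna1, Sema3a and Sema4a among those higher in mutants, and Slit1, Slit2, Nrp1, Sema3f, Sema4b and Ephb2 among those lower. Those 9 were singled out after their values were seen, and all of them but Nrp1 and Ephb2 encode ligands. Receptors and ligands thus differed less by this measure without control 4. Without control 2 the number was 23, where 13.4% of all genes tested did not overlap.

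**Figure D4:**
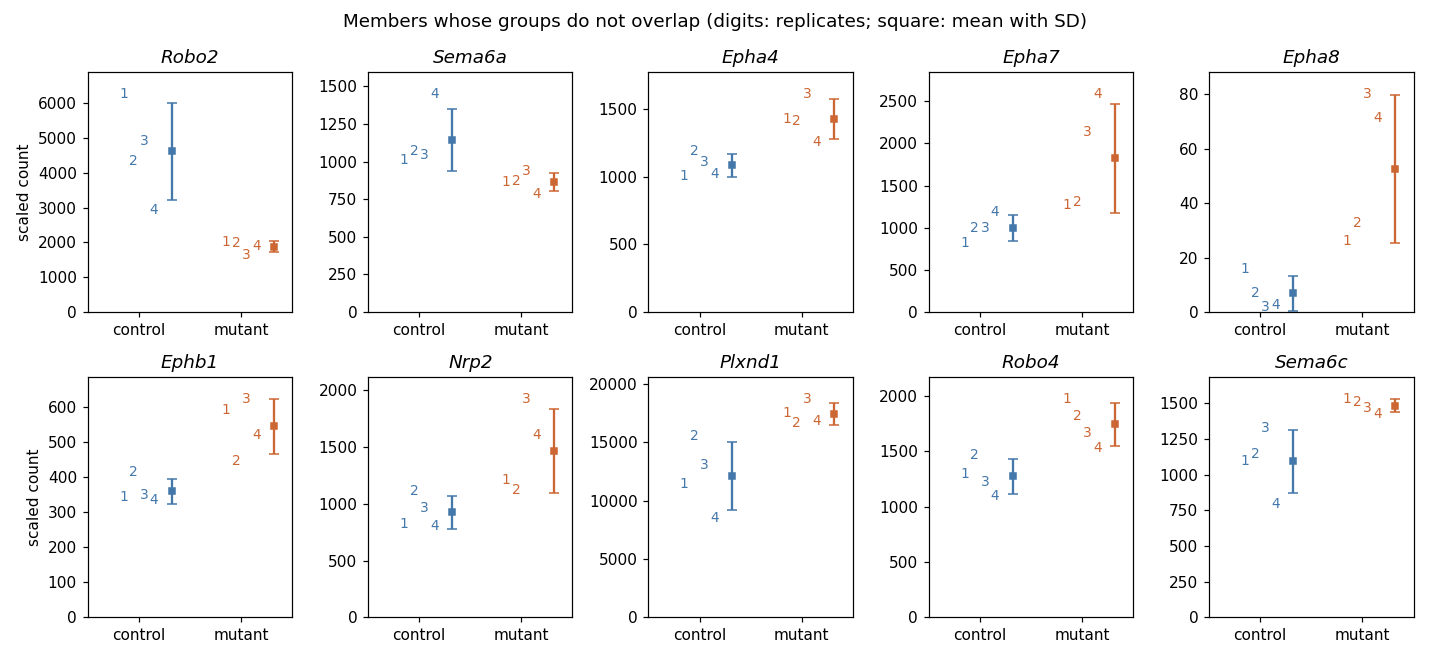
Scaled counts of the 10 guidance genes whose groups did not overlap, on axes that start at 0. Digits mark replicates 1 to 4 of each group and squares with bars give mean and SD; Robo2 and Sema6a are lower in mutants and the other 8 genes higher.

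Robo2 encodes the receptor through which Slit2 restrains GDNF expression in the kidney mesenchyme. Its gene (ENSMUSG00000052516) lies on chromosome 16, from 73891839 to 74411825 on the minus strand of GRCm38. The deposited values are summed per gene and do not separate its start sites. The RefSeq promoter table for GRCm38.p6 lists 3 starts for Robo2, and the one shown coincides with the start of the gene in the GENCODE annotation. It is set beside the start listed for Robo1, its neighbour on the chromosome and closest relative, because Robo2 passed the test and Robo1 did not. Capitals mark GGAA, the core that ETS factors such as Etv4 recognise, or its reverse complement TTCC, in the 250 bases before each start. Robo2 is at chr16:74411826-74412075 on the minus strand and Robo1 at chr16:72662899-72663148 on the plus strand. The Robo1 start lies inside the annotated gene, which runs from 72308306 to 73046095, so it does not meet the criterion used for Robo2.
Robo2: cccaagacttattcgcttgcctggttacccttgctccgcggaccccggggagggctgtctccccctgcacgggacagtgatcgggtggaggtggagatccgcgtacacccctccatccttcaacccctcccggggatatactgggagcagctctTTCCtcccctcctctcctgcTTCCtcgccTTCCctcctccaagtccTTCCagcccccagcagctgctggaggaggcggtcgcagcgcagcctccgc
Robo1: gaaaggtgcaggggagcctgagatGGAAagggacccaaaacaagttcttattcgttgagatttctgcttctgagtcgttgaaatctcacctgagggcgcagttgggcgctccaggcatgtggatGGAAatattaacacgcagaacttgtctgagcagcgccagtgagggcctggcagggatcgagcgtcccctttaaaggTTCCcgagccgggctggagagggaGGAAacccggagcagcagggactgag

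Each of these windows holds 4 copies of the core, counted on both strands, and the windows at the other Robo2 starts hold 3 and 1. The core is common, and 93.4% of the 32851 start windows of this length in the table hold at least 1. The longer ETS sequence CCGGAAGT, searched on both strands, is in neither window. It was in 2.88% of all windows and in 0 of the 68 windows that belong to 52 of the guidance genes. CCGGAA, which is part of it, was in 12.0% of all windows and in 8.82% of the guidance windows. Those belong to 6 genes, Ephb2, Ephb6, Plxnb1, Sema3d, Sema4a and Sema4b. These are matches of letters in 1 stretch of each gene and say nothing of whether a factor binds.

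Scaled counts of Robo2 were 6264, 4346, 4907 and 2928 for controls 1 to 4, and 1998, 1974, 1649 and 1898 for mutants 1 to 4, the order used for every gene below. The mutant libraries lay close together, below every control, and control 4 was the control nearest to them. The means were 4611 ± 1381 in controls and 1879.8 ± 160.0 in mutants (SD, n = 4 each). On the log2 scale mutants differed from controls by −1.25, with a standard error of 0.20, a 95% interval from −1.68 to −0.81 and a limma adjusted p of 0.0399, and each of the 4 mutants lay below all controls. Without control 4 the change was −1.45 (limma adjusted p = 0.00157), in a fit that called 1.18% of all genes and no other guidance gene, and without any other single library it was −1.08 to −1.28, with adjusted p from 0.0757 to 0.155. The library names carry a number whose meaning is not stated. Controls 1 and 2 have the same one as mutants 1 and 2, and among these 4 libraries the difference was −1.39. Control 4 and mutant 4 have another in common, and there it was −0.63. Over all 22 alternative settings Robo2 passed in 8, with adjusted p from 0.0012 to 0.626.

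Ratios within a library do not depend on scaling, and the transcripts of Robo1, Robo2 and Slit2 are all long (7563, 8591 and 9960 bases). The ratio of Robo2 to Slit2 was 0.957, 0.750, 0.839 and 0.964 in controls and 0.381, 0.398, 0.386 and 0.485 in mutants. Control 4 was the highest control by this measure, and the groups did not overlap. The ratio of Robo2 to Robo1 was 4.11, 2.99, 2.80 and 1.64 in controls and 1.47, 1.495, 1.007 and 1.29 in mutants. Here control 4 was the lowest control and stood nearer to mutants 1 and 2 than to any other control, again without overlap. These ratios were chosen after their values were seen and are given without a test.

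Sums of nephron progenitor markers separated the groups in the same direction as Robo2. The 10 markers listed (Six2, Cited1, Eya1, Meox1, Crym, Osr1, Tmem100, Sall1, Meox2 and Dapl1) summed to 20112 to 39196 scaled counts in controls and 7840.4 to 16227 in mutants, and none was at 0 in every library. Of the 9 tested, 8 had negative log2 fold changes, with a median of −1.23, and Crym and Osr1 fell (−2.87 and −1.69, limma adjusted p = 0.0185 and 0.0152). Control 1 had the highest and control 4 the lowest sum among controls, the same libraries as for Robo2. That order is not particular to these markers. The 12 stromal markers summed to 175456 in control 1 and 86132 in control 4, also the highest and lowest controls, and Slit2 had the same order. Lower sums in every mutant were not particular to progenitor markers either. The 8 ureteric tip markers summed to 15144 to 21508 in controls and 6181 to 11784 in mutants. The 6 smooth muscle markers summed to 9618 to 12603 in controls and 6305 to 7376 in mutants, though 5 of them had positive log2 fold changes. The part of any of these lists in the Robo2 result was not tested.

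The other Robo genes tested did not pass. Robo1 had 1456 to 1789 scaled counts in controls and 1321 to 1636 in mutants, overlapping ranges with a log2 fold change of −0.17 (95% interval −0.40 to 0.060). Robo4, an endothelial receptor of the family, had 1297, 1466, 1225 and 1096 in controls and 1970, 1814, 1661 and 1525 in mutants, with every mutant above every control. The difference of 0.46 on the log2 scale (SE 0.11) missed the threshold (limma adjusted p = 0.139), and was 0.39 without control 4. Robo3, known for commissural axons, had at most 14.2 scaled counts in any library. A difference between the log2 fold changes of 2 genes was not tested.

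All 3 Slit ligands had their lowest control value in control 4. Slit2 had 6543, 5796, 5845 and 3036 scaled counts in controls and 5243, 4957, 4270 and 3913 in mutants. Controls 1 to 3 all lay above the mutants and control 4 below them. With all libraries the log2 difference was −0.16 (limma SE 0.22, adjusted p = 0.824), and −0.41 (adjusted p = 0.0945) without control 4. Slit1 had 1887, 1638, 1741 and 637 in controls and 1569, 1440, 836 and 621 in mutants, so control 4 lay with mutants 3 and 4. On the log2 scale it differed by −0.39 (limma SE 0.39, adjusted p = 0.733), and by −0.75 (adjusted p = 0.212) without control 4. Slit3 had 1480.3, 1321, 1334 and 620 in controls and 1258 to 1506 in mutants. Its difference of 0.27 (limma adjusted p = 0.695) became −0.013 without control 4.

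Among the ephrins, 0 of 8 passed (limma), and 0 passed with limma voom and library weights. An unadjusted limma p under 0.05 was found for 2 (25%), against 12.0% of all genes tested. Efnb1, an X-linked ligand and the most abundant of them, had 5281 to 6830 scaled counts in controls and 6728 to 7343 in mutants, with a log2 fold change of 0.19 (95% interval −0.0022 to 0.39) that became 0.12 without control 4. Efnb2, the arterial ephrin, had 3045 to 3838 in controls and 3642 to 4409 in mutants, which gave 0.25 on the log2 scale (limma SE 0.095, adjusted p = 0.317). The ephrin-A ligands, which are tethered by a lipid anchor, had 4 of 5 negative log2 fold changes, a count that turned to 2 of 5 when libraries were scaled to total count. Efna5 varied most among them. It had 1265, 447, 1160 and 706 in controls, with control 2 lowest, and 360 to 590.1 in mutants, overlapping control 2. The log2 difference was −0.75 (limma SE 0.31, adjusted p = 0.370). Efna2 and Efna4 stood at −0.048 and −0.20, and at −0.082 and −0.12 without control 4.

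Of the 12 tested Eph receptors, 10 had positive log2 fold changes and 4 had groups that did not overlap, all higher in mutants, where 4.17% of all genes tested were higher in every mutant. None passed over all genes with limma, and 5 (41.7%) had an unadjusted p under 0.05, against 12.0% of all genes tested. With limma voom and library weights 3 passed (Epha4, Epha8 and Ephb1), in a fit that called 3.83% of all genes. Their median log2 fold change was 0.27, and 0.19 without control 4.

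Epha7, a receptor known from axon mapping, had the second highest log2 fold change among Eph receptors after Epha8, and missed the threshold. It had 815, 1002, 993 and 1187 scaled counts in controls and 1275, 1306, 2136 and 2588 in mutants, so mutants 3 and 4 stood well above mutants 1 and 2. On the log2 scale mutants stood 0.81 higher (limma SE 0.23, 95% interval 0.30 to 1.33, adjusted p = 0.184), and 0.90 higher without control 4. For the first 2 libraries of each group it was 0.51, and for mutant 4 against control 4 it was 1.12. Epha4 had 1007, 1193, 1112 and 1021 in controls and 1422, 1409, 1612 and 1259 in mutants, a narrower gap of 0.39 on the log2 scale (limma SE 0.10, adjusted p = 0.146). Ephb1 had 343, 413, 348 and 335 in controls and 591, 446, 623 and 519 in mutants, or 0.59 on the same scale (limma SE 0.14, adjusted p = 0.116). Control 2 and mutant 2 were the nearest libraries of the groups for Ephb1.

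Epha8 was scarce, and its fold change rests on few reads. Its estimated counts, before scaling, were 17, 9, 2 and 1 in controls and 32, 40, 92 and 81 in mutants. After scaling these were 15.7, 7.11, 1.86 and 2.77 in controls and 26.1, 32.6, 80.1 and 71.2 in mutants, with every mutant above every control and mutants 3 and 4 highest. At 2.96 (limma SE 0.66, 95% interval 1.48 to 4.44), its log2 fold change is the highest of the members, and it missed the threshold (adjusted p = 0.108). At such counts the value depends on the pseudocount of 1.

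The groups overlapped for the remaining 8 Eph receptors. Ephb4, the receptor of veins that binds ephrin-B2, had 6047 to 8509 scaled counts in controls and 7640 to 8173 in mutants, with a log2 fold change of 0.11 (95% interval −0.11 to 0.34) that became 0.020 without control 4. Ephb2 had 2000.5 to 3110.2 in controls and 2371 to 2672 in mutants, with one of −0.065 (95% interval −0.36 to 0.23) that became −0.21 without control 4. Epha3 had 195 to 387 in controls and 285 to 503 in mutants, with one of 0.53 (limma SE 0.24, adjusted p = 0.424).

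Among the 6 class 3 semaphorins none passed (limma), and 0 passed with limma voom and library weights. An unadjusted limma p under 0.05 was found for 1 (16.7%), against 12.0% of all genes tested. That one was Sema3c, a secreted ligand for neuropilins. It had 3145, 3978, 3055 and 3639 scaled counts in controls and 3864, 4416, 4818 and 7039 in mutants, mutant 4 standing highest and mutant 1 below control 2. Mutants stood 0.51 higher on the log2 scale (limma SE 0.17, adjusted p = 0.267). Sema3a, a repellent cue that podocytes also make, had 836, 904, 913 and 1317 in controls and 1070.0 to 1234 in mutants. Control 4 lay above every mutant and the other controls below them, so the difference of 0.23 on the log2 scale became 0.37 (limma adjusted p = 0.0757) without control 4. Sema3f had 3554 to 5327 in controls and 3741 to 4592 in mutants, with a log2 fold change of −0.17 (95% interval −0.46 to 0.12), and −0.30 without control 4. Sema3d had 1655 to 3323 in controls and 2092 to 2727 in mutants, with one of −0.043 (95% interval −0.46 to 0.38). Its lowest value was that of control 4, without which the difference was −0.22.

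Of the 13 semaphorins of classes 4 to 7, 0 passed (limma), and 0 passed with limma voom and library weights. An unadjusted limma p under 0.05 was found for 3 (23.1%), against 12.0% of all genes tested. Sema6a and Sema6c, transmembrane semaphorins of the same class, stood on opposite sides. Sema6a had 1012, 1068, 1044 and 1450.3 scaled counts in controls and 867, 872, 936 and 785 in mutants. All mutants lay below all controls, and control 4 stood apart from the other controls on the high side. The log2 difference was −0.39 (limma SE 0.13, adjusted p = 0.248), and −0.27 without control 4. Sema6c had 1097, 1142, 1329 and 797 in controls and 1529, 1505, 1466 and 1425 in mutants, with every mutant above every control. Here the log2 difference was 0.46 (limma SE 0.14, adjusted p = 0.221), and 0.32 without control 4. Sema5a had 2406 to 3258 in controls and 3084 to 4144 in mutants, with one of 0.41 (limma SE 0.12, adjusted p = 0.213), and Sema4c one of 0.11 (95% interval −0.10 to 0.33), which became 0.065 without control 4.

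Plexins, the semaphorin receptors, had positive log2 fold changes in 7 of 8 tested genes, with a median of 0.34 that was 0.18 without control 4. Plxnd1, a receptor of endothelial cells, had 11409, 15522, 13062 and 8524 scaled counts in controls and 17552, 16633, 18719 and 16849 in mutants. The mutants lay above every control, with control 2 nearest and control 4 farthest. That is 0.56 on the log2 scale (limma SE 0.16, adjusted p = 0.191), and 0.40 (adjusted p = 0.0918) without control 4. Plxnb2, the most abundant receptor, had 17226, 17045.5, 16842 and 11330.4 in controls and 16264 to 18159 in mutants. Controls 1 to 3 lay inside the mutant range and control 4 far below it, so the log2 fold change of 0.17 became 0.024 without control 4. Plxnb1 also moved, from 0.33 to 0.10 without control 4, but its controls 1 and 3 (4451 and 4228) lay below every mutant (4588 to 5243) as well. Plxna2 had 418 to 576 in controls and 559 to 829 in mutants, or 0.39 on the log2 scale (limma SE 0.15, adjusted p = 0.336).

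The neuropilins, co-receptors for class 3 semaphorins and for VEGF, had log2 fold changes of opposite sign. Nrp2 had 823, 1111, 969 and 803 scaled counts in controls and 1211, 1124, 1925 and 1606 in mutants. Every mutant lay above every control, mutant 2 by little and mutants 3 and 4 by the most. The log2 difference was 0.64 (limma SE 0.18, 95% interval 0.24 to 1.04, adjusted p = 0.182), with 0.29 for the first 2 libraries of each group and 1.00 for mutant 4 against control 4. Nrp1 had 2838, 3087, 3102 and 1840.4 in controls and 2437, 2310, 2792 and 1979 in mutants. It differed by −0.17 on the log2 scale (95% interval −0.56 to 0.22), and by −0.35 (adjusted p = 0.147) without control 4.

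The other 23 tested genes, 14 ligands and 9 receptors, had log2 fold changes from −0.32 to 0.75 and limma adjusted p from 0.266 to 0.985. Of these, 2 had an unadjusted p under 0.05, Plxna4 and Ephb6, singled out after their values were seen. Over all 55 tested members 17 had an unadjusted p under 0.05, 14 of them positive, which is 30.9% against 12.0% of all genes tested. That balance of directions depended on control 4: without it 24 had such a p, 15 positive and 9 negative, against 18.3% of all genes tested. Among controls 1 and 2 and mutants 1 and 2 alone there were 6 in each direction, against 9.79%.

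Markers of the cell types a whole kidney holds were summed for each library, and the sums of several separated the groups. The 12 endothelial markers (among them Pecam1, Cdh5, Kdr, Tek and Tie1) all had positive log2 fold changes, with a median of 0.30, and summed to 19789 to 26253 scaled counts in controls and 28854 to 32896 in mutants. None passed the limma threshold, and none was at 0 in every library. An unadjusted limma p under 0.05 was found for 8, where 12.0% of all genes tested had one. Robo4 and Plxnd1, with endothelial expression, lay in the same direction. The other guidance genes tied to vessels above varied. Nrp2 stood at 0.64, Efnb2 at 0.25 and Ephb4 at 0.11 (0.020 without control 4). Nrp1 lay in the opposite direction, at −0.17 (−0.35 without control 4). The 9 podocyte markers, of which 8 were tested and had positive log2 fold changes with none past the threshold, summed to 3398 to 7376 in controls and 5423 to 15409.5 in mutants. Mutants 3 and 4 were highest, as for Epha7, Epha8 and Nrp2. Control 4 was the highest control, as for Epha7, but it was the lowest control for Nrp2 (803) and lay below controls 1 and 2 for Epha8 (2.77). The 10 proximal tubule markers summed to 340 to 5131 in controls and 830 to 13948 in mutants, with mutants 3 and 4 again highest, so that pattern is not particular to podocyte markers. Neuronal markers, whose cells use the same guidance genes, had negative log2 fold changes in 5 of 6 tested genes and sums that overlapped, at 861 to 1066 in controls and 385 to 889 in mutants. Of the ureteric tip markers, 7 of 8 had negative log2 fold changes, and their sums of 15144 to 21508 in controls and 6181 to 11784 in mutants did not overlap. Etv4 itself, which is on that list, and Gfra1, a GDNF co-receptor, fell (limma adjusted p = 2.62e-05 and 0.0432). The 10 macrophage markers all had positive log2 fold changes, with sums of 2487 to 3777 in controls and 3954 to 4648 in mutants. Of the 12 early nephron markers 11 were positive, with sums of 30448 to 42417 in controls and 46055 to 53089 in mutants. None of the macrophage, early nephron, proximal tubule or neuronal markers passed (limma). Of those tested, 6 of 10, 7 of 12, 0 of 7 and 0 of 6 had an unadjusted p under 0.05, against 12.0% of all genes. Such a limma p was found for 3 of 8 podocyte, 6 of 9 nephron progenitor and 6 of 8 ureteric tip markers tested. It was found for 3 of 12 stromal and 1 of 6 smooth muscle markers. The part of any of these markers in the results above was not tested.

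The genes that act inside the cell below these receptors, and other guidance families, were taken from fixed lists. Of 18 genes around Slit-Robo signalling, 21 around Eph and ephrin signalling and 25 around semaphorin signalling, all tested, 1 passed the limma threshold. It was Grb10, an adaptor that binds receptor tyrosine kinases, which fell from 25114 ± 1770.4 scaled counts in controls to 16194 ± 864 in mutants (SD, n = 4 each), or −0.63 on the log2 scale (limma SE 0.083, adjusted p = 0.0167, and 0.0071 to 0.0978 with 1 library left out). Without control 4, Adam10 (−0.59, limma adjusted p = 0.0185), a protease that sheds ephrins, Ptk7 (−0.40, adjusted p = 0.0353) and Dpysl5 passed as well. That fit called 1.18% of all genes, against 0.301% with all libraries. The medians of the 3 lists were 0.034, 0.039 and 0.14. The smallest p among the others belonged to Dag1, a receptor of the matrix that also binds Slits (0.39, SE 0.098, adjusted p = 0.139), and to Dpysl5, of the collapsin response mediator family downstream of semaphorins (0.58, SE 0.097, adjusted p = 0.0521, and 0.0362 without control 4). Of 24 tested netrin, repulsive guidance and related genes, 0 passed (limma) and 4 had an unadjusted p under 0.05, against 12.0% of all genes tested. Slitrk2 had the smallest p (−1.92, SE 0.38, limma adjusted p = 0.0807). Flrt2 passed in this list without control 4 (0.39, limma adjusted p = 0.0416), in the fit that called 1.18% of all genes.

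The authors' deposited table holds 644 genes, all with an adjusted p below 0.05, where 21291 gene rows were deposited. Of the 59 guidance genes it holds 7. In the authors' deposited table Robo2 stands at −1.46 on the log2 scale (SE 0.13, adjusted p = 4.36e-26), the single one of the 7 that is lower in mutants. The other 6 in the authors' deposited table are Epha7 (0.96), Epha8 (2.68), Ephb1 (0.57), Sema3c (0.57), Nrp2 (0.60) and Plxna4 (0.85), with adjusted p from 0.000799 to 0.0479. In 5 of the 7 the libraries did not overlap between groups, against 8.6% of all genes tested. The 7 were called by the authors from libraries of this same series, so that count is not separate support. For 628 genes with a matching symbol, the mean normalized count in the authors' deposited table was set against the mean over the libraries here. Without control 4, with size factors recomputed, 99.7% of genes lay within 1% of the median ratio of 1.00, against 18.5% with all 8 libraries and 6.21% to 13.2% without any other library. The values in the authors' table thus match means over 7 libraries that leave out control 4.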

How the data were processed

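Reads were handled with kallisto 0.46.0, fastp 0.23.2 and DESeq2 1.40.2 on build mm10, per the submitters' processing notes, which name no roles or settings here. The authors deposited log2 values for 21291 gene rows. They are named as normalized. Undoing the log2 and taking away 1 gave whole numbers (within 1e-06) for 73.4% of values, and sums differed between libraries, so they were taken as estimated counts without depth correction. The authors' second table, per the file headers, holds a mean normalized count (a signal), log2 fold changes, p-values and a statistic (a score), for 644 genes.

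Estimated counts were divided by median-of-ratios size factors (0.361 in control 4 to 1.27 in control 2), giving scaled counts. The 14974 genes that reached 10 scaled counts in 4 or more libraries entered a fit of log2(scaled count + 1) by limma 3.58.1 in R 4.3.3 (eBayes with trend, genotype alone, all 8 libraries, two-sided, Benjamini-Hochberg over all genes, threshold 0.05). Fold changes are on that scale, which understates those of low genes. Fits without libraries kept the genes tested and the size factors. The steps were tested on simulated data.

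The guidance genes and gene lists were chosen with earlier results of these data known. Named genes are members past the threshold or with non-overlapping groups, the 2 most abundant of each family, and a fixed kidney list; from other lists, members past the threshold or else the smallest p. Positions and lengths come from GENCODE M21 on GRCm38, the assembly of mm10, for all 59 genes. Upstream sequences come from RefSeq's GRCm38.p6 table, which held 52 of them. Alternatives covered the pseudocount, filters, scaling, variance model, blocks, depth correction, threshold and libraries left out; total count without Lars2 was chosen after seeing the data. Figures were drawn with matplotlib 3.10.9.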

Additional observations from a re-analysis of the deposited data

Results flagged for a closer look

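In the 32 named guidance genes, 64 groups of 4 libraries were examined for a library far from the other 3, and 5 stood out, where chance gives about 1 in 20 groups. In 3 of the 5 it was control 4: Plxnb2 had 11330.4 scaled counts there against 16842 to 17226 in the other controls, Sema3a had 1317 against 836 to 913, and Sema6a had 1450.3 against 1012 to 1068. Ephb1 had 413 scaled counts in control 2 against 335 to 348 in the other controls. Epha3 had 285 in mutant 1 against 467 to 503 in the other mutants.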

How the results depend on the processing

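The number of genes past the limma threshold was 45 and moved to 11 with total count scaling, 28 without a variance trend, 68 with voom, 574 with voom and library weights, 16 with controls 1 and 2 and mutants 1 and 2 alone, 190 without control 4 and mutant 4, 80 without depth correction and 123 at a threshold of 0.1, and ran from 9 to 177 with 1 library left out. The number of guidance genes past it was 1 and moved to 0 with no filter, total count scaling with or without Lars2, no variance trend, a block on the library number, or controls 1 and 2 and mutants 1 and 2 alone; it was 6 with voom and library weights (Epha4, Epha8, Ephb1, Plxnd1, Robo2 and Robo4), and 0 to 1 with 1 library left out, 1 being without control 4. Without depth correction 1 passed, Epha8 and not Robo2, and the median of all genes shifted to 0.48; it was 0.14 with total count scaling. Guidance genes with non-overlapping groups numbered 10, and 29 with the first 2 of each group, 22 without control 4 and mutant 4, and 11 to 23 with 1 library left out; the shares of all genes were then 41.5%, 21.4% and 10.7% to 17.3%, against 8.6%. With the replicate number of the titles as a block, 133 genes and 2 guidance genes passed, Robo2 and Epha7 (adjusted p = 0.0451); deviations of same-numbered libraries correlated at 0.27, 0.098, −0.13 and 0.35, and not every library correlated best with its own number, so the numbers were not taken to pair them. Of 32 named genes, 22 kept their sign without depth correction, where Sema6a stood at 0.081, and 29 to 32 under the other alternatives. Beyond the fits with fewer libraries, the cause was not tested. Control 4, with the fewest counts, limits scarce genes such as Epha8.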
